A study of Homo sapiens with 23 samples.

Results

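The cytosolic ribosomal protein genes encode the proteins of the ribosome that translates nuclear messages. They were taken by name: every protein-coding gene of the count table whose GENCODE symbol is RPL or RPS with a number, or RPLP0, RPLP1, RPLP2 or RPSA, with a mean of at least 10 counts over the 23 libraries. This gave 84 genes, 33 of the small and 51 of the large subunit, among 60605 rows of the table. All 84 passed the filter on low counts that left 26057 genes for testing. The minimum left out RPL3L, with a mean of 6.65 counts, and RPL10L, with 1.0. The member with the lowest mean was RPS4Y1 at 12.6 counts, the next was RPS28 at 90.9, and the highest was RPS24 at 3110. The members were chosen by name and by this mean count, so these values are given as a description, and RPS4Y1 is counted with the members but its values are not listed.

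The measurement was PRO-seq, a run-on assay that labels the RNA made by engaged polymerases and so reads transcription and not RNA abundance. The cells were T47D_dTAG_TRPS1_Clone_28, a single clone of T47D, a line from a luminal breast tumour that expresses the estrogen receptor, in which TRPS1 carries a tag for induced degradation. TRPS1 is a GATA-type zinc finger factor best known as a transcriptional repressor. Control cells received 0.1% DMSO for 24 h (n = 4), and the others received 50 nM dTAG-13 with 50 nM dTAGV-1, ligands that send the tagged protein to the proteasome, for 0.5, 1, 2 or 4 h (n = 4 each) or for 24 h (n = 3, replicates 2, 3 and 4). The comparison asks how transcription follows the loss of TRPS1, and all groups share the same clone and the same tag. The ligands act on the TRPS1 protein, so these transcription data do not check its loss. The cells of each replicate were collected together, and same-numbered libraries were taken to share a harvest.

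Ribosomal protein genes are among the most heavily transcribed genes of a growing cell, and their products are needed in equal amounts. Most of their messages start with a C followed by an unbroken run of pyrimidines, the 5′ TOP tract, through which mTOR signalling controls their translation. Many of the genes also carry small nucleolar RNAs (snoRNAs) in their introns. A snoRNA is cut from the intron of its host and guides the chemical modification of ribosomal RNA, so the host's primary transcript serves ribosome assembly in both ways.

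The libraries held 4408544 to 17571616 counts, with a median of 9768427. Luminal genes were high in every library, ESR1 between 2243 and 2686 CPM (counts scaled to a common library total, with TMM factors) and GATA3 between 912 and 1113. The basal keratins KRT5 and KRT14 did not pass 0.47 CPM, while TP63 lay between 18.3 and 32.5 CPM and COL1A1 between 9.18 and 14.8. The 5 libraries of replicate 1 stood apart from the other 18 in a way that touches the members: of the reads of members that hold a snoRNA gene, 38.9% to 55.2% lay within the snoRNA genes, against 8.23% to 30.1% elsewhere. Replicate 1 held 4408544 to 7886241 counts a library, against 5547868 to 17571616 in the other replicates, and gave 3.05% to 6.50% of its reads to the mitochondrial genome, against 1.73% to 3.60% in the other replicates. Several results for the members are also given without those libraries.

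The RefSeq promoter table (GRCh38.p14, 250 bases before to 50 after each start) held 68 of the 84 members. A tract of at least 5 C or T bases, C first and directly at the start, was found in 48 of the 68, or 70.6%, against 5.14% of all 27305 gene symbols in that table. The windows below run from 15 bases before the start, where a gene had several entries that with the longest tract was taken, and capitals mark the tract. They show the members that were called at 0.5 h, of which RPL19 and RPL27 have no such tract, with RPL35, which was called at 4 h. RPS28 and 2 paralogs, also without a tract, were not called at 0.5 h.
RPS23: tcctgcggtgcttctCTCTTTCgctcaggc
RPL22L1: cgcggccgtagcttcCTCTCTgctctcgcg
RPS10: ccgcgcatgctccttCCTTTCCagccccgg
RPLP0: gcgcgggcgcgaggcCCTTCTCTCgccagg
RPS9: gtggcgcttccgcgcCTCTTTCTCagtgac
RPS18: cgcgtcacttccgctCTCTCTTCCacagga
RPS24: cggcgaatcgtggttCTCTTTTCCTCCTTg
RPL41: cggaacttcgcctttCTCTCggccttagcg
RPL35: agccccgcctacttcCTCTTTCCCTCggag
RPL19: tgggctctccccttcgcagataatgggagg
RPL27: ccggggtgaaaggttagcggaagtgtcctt
RPS28: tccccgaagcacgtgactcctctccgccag
RPS27L: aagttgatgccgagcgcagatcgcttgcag
RPL26L1: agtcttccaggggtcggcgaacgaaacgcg

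The RPS23 window lies on the minus strand of chromosome 5 at chr5:82278340-82278369, and that of RPL22L1 on the minus strand at chr3:170870181-170870210. RPL22L1, a paralog of RPL22, thus carries a tract of 6 bases although RPS27L and RPL26L1, paralogs of RPS27 and RPL26, do not. The word AGATAA, which GATA-type factors can bind, and its variants AGATAG, and TGATAA or TGATAG, were searched on both strands. At least 1 of them was in the promoters of 12 of 68 members (17.6%), against 29.1% of all symbols. The ETS word CCGGAAG was in 24 of 68 members (35.3%), against 12.2% of all, and the YY1 word AAGATGGC in 7 (10.3%), against 3.52%. A match here is a description of the letters in the window and not a bound site.

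Of the 84 members, 28 hold at least 1 snoRNA gene on their own strand, 60 annotated entries in all. The sequences below are of box C/D snoRNAs with many reads in different hosts (hg38, GENCODE), with box C (TGATGA) nearest the 5′ end and box D (CTGA) nearest the 3′ end in capitals.
SNORD68 in RPL13, chr16:89561434-89561517: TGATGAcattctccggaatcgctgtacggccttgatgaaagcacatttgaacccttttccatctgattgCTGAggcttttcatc
SNORD100 in RPS12, chr6:132816802-132816877: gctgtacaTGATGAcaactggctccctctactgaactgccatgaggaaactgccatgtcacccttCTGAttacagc

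Both are on the plus strand, as their hosts are. SNORD68 spans 84 bases and had a mean of 736 counts per library, with 204 in the lowest library and 2684 in the highest. PRO-seq is meant to read RNA under synthesis, and a short mature RNA inside the gene is counted with its host when reads are counted over the whole gene span, as they were here.

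In DMSO the members were mostly far above other genes in level per length. CPM per kilobase of gene span, after subtraction of snoRNA reads, had a median of 8.90 over 83 members, with quartiles of 5.62 and 16.1, against a median of 0.860 over the other protein-coding genes tested. Of the 83, 72 lay at or above 3.38 CPM per kb, the level that marks the top 10% of those other genes. RPS27, a small-subunit protein with a zinc finger, was the highest at 72.5 ± 13.2 CPM per kb (SD, n = 4), with RPS2, which sits at the entry of the messenger channel, at 70.1 ± 23.7. These values differed by less than their SDs. RPL41, the shortest member at 1.38 kb, followed at 40.0 ± 2.74 and RPS25 at 40.0 ± 4.00, again within their SDs. At the other end stood RPL39L, a paralog of RPL39 known from the testis, at 0.589 ± 0.041 CPM per kb. RPS27L, a paralog of RPS27 under p53 control, had 0.800 ± 0.072, and RPL36 had 1.78 ± 0.12. RPL39L lay below RPS27L by more than their SDs, while RPL36, RPS9 (1.80 ± 0.12) and RPL22 (1.87 ± 0.12) lay within their SDs of one another. Annotated gene spans can be long, as in the 48.2 kb of RPS9 or the 60.0 kb of RPL39L, beside a median of 5.55 kb for the members. A long span lowers a level per length.

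**Figure D1:**
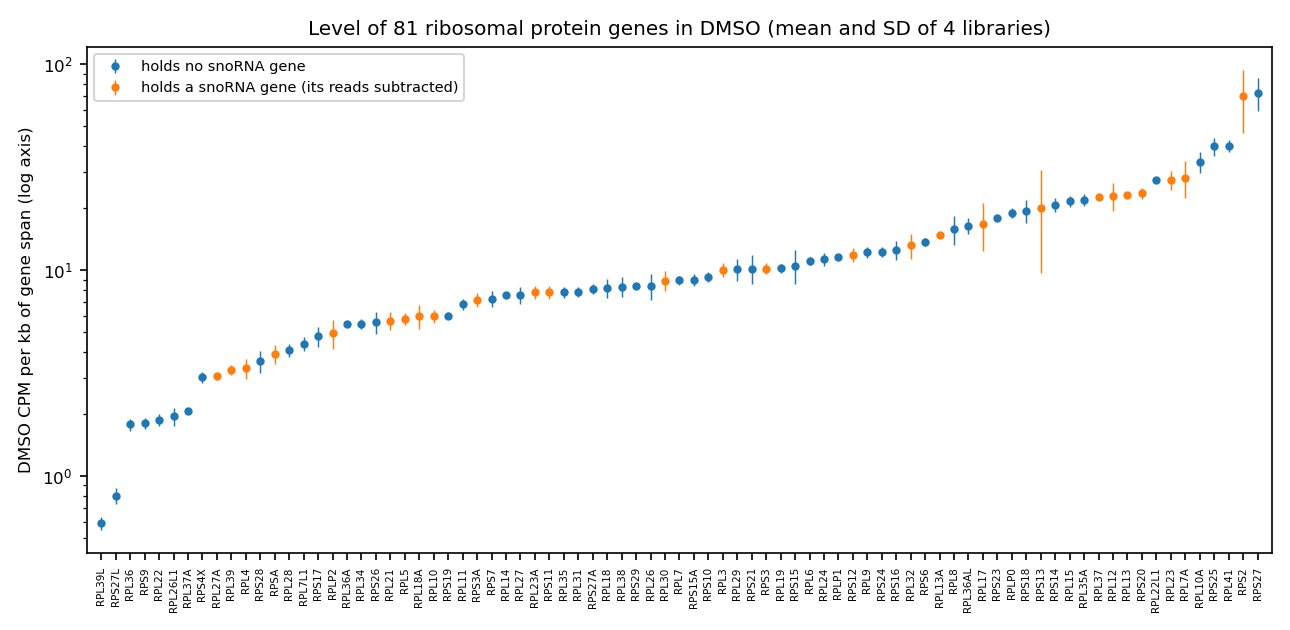
CPM per kilobase of gene span (log axis) for 81 members in the 4 DMSO libraries; points are means and bars SDs, and reads in snoRNA genes are subtracted from the orange points. Paralogs RPL39L and RPS27L lie at the low end, below 1 CPM per kb, and RPS2 and RPS27 at the high end near 70.

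As a class, the members that hold a snoRNA gene spread more between replicates. In DMSO the median coefficient of variation was 21.5% over the members that hold a snoRNA gene and 6.76% over those that hold none. With the snoRNA reads subtracted, the first value became 9.12%. Not every host followed this: RPS2 had 34.3% before and 33.8% after subtraction. RPS13, named after its values were seen, had 52.2% and 51.9%. The snoRNA share of a host's reads differed widely by gene: its median over libraries was 1.17% in RPL30 and 1.48% in RPL37, but 40.6% in RPL7A and 52.2% in RPL23A. It differed as widely by library, and in RPL13 the share ran from 13.0% to 84.6%. RPL7A and RPL23A hold 4 snoRNA genes each, and RPL30 and RPL37 hold 1.

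**Figure D2:**
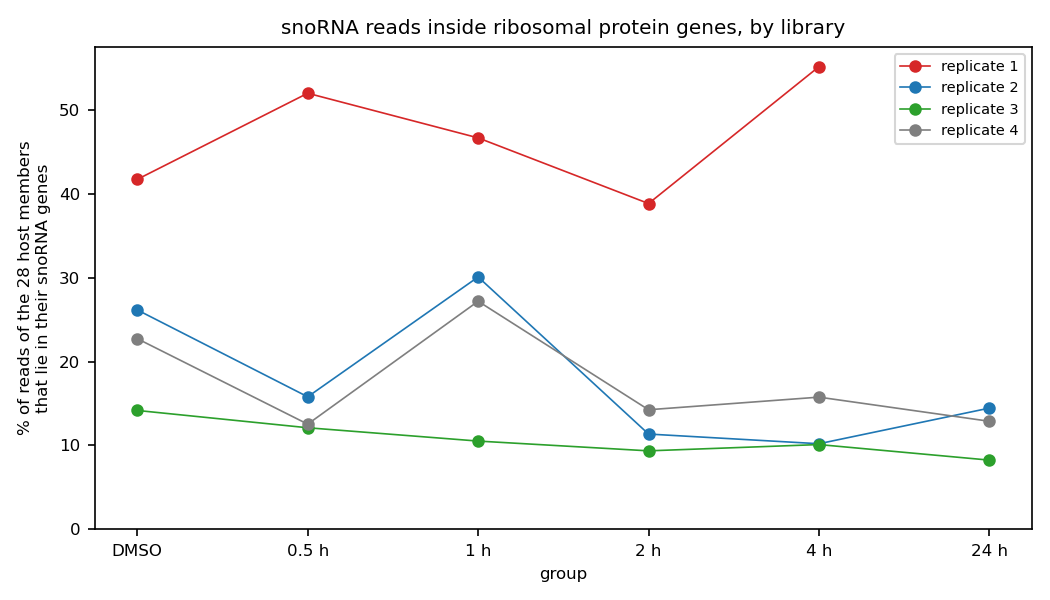
Share of the reads of the 28 snoRNA-holding members that lies in their snoRNA genes, by group and replicate. Replicate 1 (red) is above the other replicates in every group it is in, from 38.9% at 2 h to 55.2% at 4 h.

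RPL13, a large-subunit protein, shows what this does to a single gene. As deposited, its level was 297, 168, 119 and 167 CPM in DMSO replicates 1 to 4 and 524, 147, 123 and 129 CPM at 0.5 h. Replicate 1 lay far above the rest and the groups overlapped. Without the reads of SNORD68, DMSO had 90.0, 91.2, 85.8 and 89.6 CPM and 0.5 h had 106, 98.7, 95.1 and 99.5 CPM, so that every 0.5 h library lay above every DMSO library.

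At 0.5 h after the ligands were added, nearly all ribosomal protein genes lay slightly above DMSO. Log2 fold changes, relative to the scaled library totals, were above 0 in 83 of 84 members, against 53.2% of all 26057 genes, and their median was 0.13 against 0.01 for all genes. Without replicate 1, 66 of 84 were above 0, made up of 55 of the 56 members with no snoRNA gene and 11 of the 28 with one, and the median was 0.096. Only RPS23, a protein of the decoding centre, passed edgeR's quasi-likelihood test at an adjusted p under 0.1 without the replicate block (1 of 84; 0.476% of all genes were called), and 19 of 84 had an unadjusted p under 0.05, against 7.68% of all genes. With the harvest as a block, 10 members rose and none fell, against 2.48% of all genes called in either direction and 1.12% called higher. The 10 were RPS23, RPL22L1, RPS10, RPLP0, RPL41, RPS9, RPL19, RPL27, RPS18 and RPS24; RPL27, RPL41 and RPS9 are named after their values were seen. None of the 10 holds a snoRNA gene. Without a block, 55 of the 56 members with no snoRNA gene were above 0, the exception being RPL18 at -0.03 ± 0.11 (SE).

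The same held in each harvest taken alone for the members without a snoRNA gene. Their median log2 difference between 0.5 h and DMSO was 0.14, 0.10, 0.13 and 0.11 in replicates 1 to 4, with 47, 48, 52 and 50 of 56 genes higher. Over all genes the medians in the same pairs lay between -0.0018 and 0.012. The members that hold a snoRNA gene had medians of 0.51, -0.19, 0.04 and -0.04 in the same pairs, so their direction depended on the replicate. With snoRNA reads subtracted these became 0.24, 0.04, 0.10 and 0.11. Of the 84 members, 38 were higher in all 4 pairs at 0.5 h, against 10.6% of all genes, and none was lower in all 4, against 9.88%. In 10 members every 0.5 h library lay above every DMSO library, against 2.58% of all genes; none lay below, against 2.39%.

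**Figure D3:**
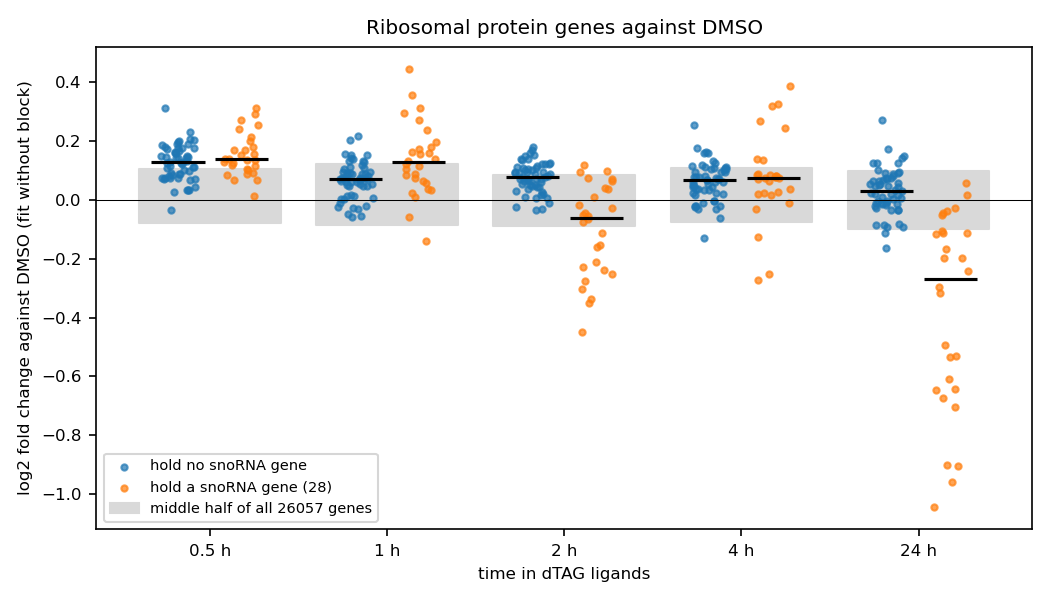
Log2 fold change of each member against DMSO at each time, fit without the replicate block; black bars are medians, and grey spans the interquartile range of all 26057 genes (RPS4Y1 is not shown). Members without a snoRNA gene (blue) have medians of 0.13 at 0.5 h and 0.03 at 24 h, and snoRNA-holding members (orange) spread most.

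RPS23 (ENSG00000186468, chr5:82273320-82278396, minus strand) had 92.7, 90.1, 88.1 and 92.3 CPM in DMSO replicates 1 to 4. At 0.5 h it had 104, 102, 107 and 105 CPM, and the groups did not overlap. The log2 fold change was 0.21 ± 0.04 (SE), with adjusted p = 0.0159 from edgeR without the block and 0.00281 with it. The log2 difference was 0.17, 0.18, 0.28 and 0.18 in pairs 1 to 4, largest in replicate 3. The call without the block was lost in 6 of 10 alternatives, with adjusted p between 0.00199 and 0.404, and held in 6 of 7 alternatives that kept the block, the exception being the one without replicate 3 (adjusted p = 0.122). ATG10 lies on the opposite strand over part of RPS23.

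RPL22L1, the paralog that can replace RPL22 in the ribosome, had 141, 151, 148 and 144 CPM in DMSO and 158, 162, 165 and 167 CPM at 0.5 h. Every library of the second group was above every library of the first. Its log2 fold change was 0.16 ± 0.03 with the block (adjusted p = 0.014, edgeR) and 0.16 ± 0.04 without it (adjusted p = 0.134). RPL22 itself lay between 43.6 and 50.1 CPM in DMSO and between 45.6 and 50.6 CPM at 0.5 h, so its groups overlapped. The RPL22 difference of 0.07 ± 0.05 with the block did not pass (adjusted p = 0.614).

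RPLP0 encodes the base of the stalk that recruits translation factors to the large subunit. It had 90.7, 89.3, 82.4 and 81.8 CPM in DMSO and 109, 99.0, 87.7 and 93.3 CPM at 0.5 h. Replicates 1 and 2 were higher than 3 and 4 in both groups, so the groups overlapped although each harvest rose. The log2 fold change was 0.17 ± 0.04 with the block (adjusted p = 0.0405, edgeR) and 0.18 ± 0.08 without it (adjusted p = 0.602). RPLP1, an acidic stalk protein, had 37.7, 40.5, 39.4 and 39.4 CPM in DMSO and 41.9, 45.9, 39.4 and 38.1 CPM at 0.5 h. RPLP2, its partner and a snoRNA host (SNORA52), had 21.9, 24.6, 13.4 and 17.7 CPM and then 37.6, 20.3, 16.8 and 17.8 CPM. Neither RPLP1 nor RPLP2 passed the test at any time, with or without the block.

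RPS10, a protein of the small-subunit head, had 80.0, 84.2, 73.9 and 82.5 CPM in DMSO and 88.3, 98.2, 86.6 and 88.8 CPM at 0.5 h, with no overlap. Its log2 fold change was 0.17 ± 0.04 with the block (adjusted p = 0.0201). RPL19, a large-subunit protein that bridges the subunits, had 48.3, 48.6, 46.0 and 43.4 CPM and then 53.3, 53.4, 50.6 and 50.8 CPM, again apart. Its change was 0.16 ± 0.05 (adjusted p = 0.075). RPL41, RPS9, RPL27, RPS18 and RPS24 had blocked changes between 0.13 and 0.20 and adjusted p between 0.0347 and 0.0794, and each was higher in 4 of 4 pairs. None of these 9 genes was called by edgeR without the block, while DESeq2 without the block called RPL22L1 and RPS9 of them. Among the block's 7 alternatives each was called in 2 to 4, with none called when replicate 3 was left out.

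**Figure D4:**
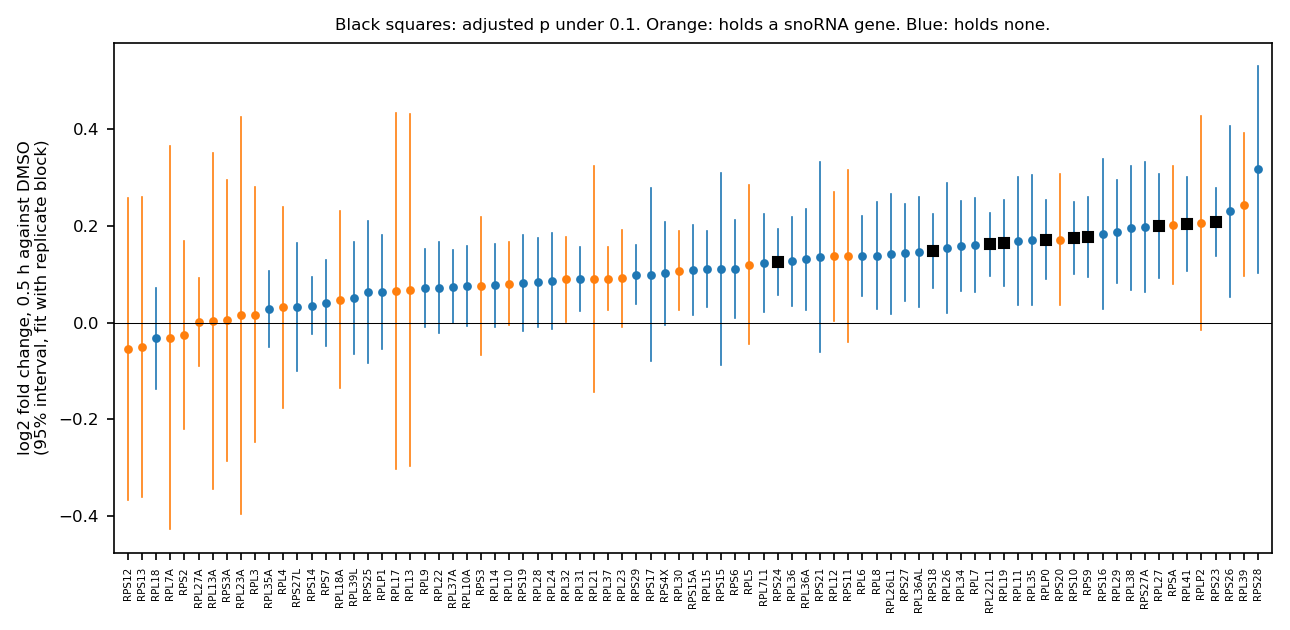
Log2 fold change at 0.5 h against DMSO for 81 members in the fit with the replicate block, with 95% intervals, ordered by value; black squares passed the test at an adjusted p under 0.1. The intervals of snoRNA-holding members such as RPL23A (orange) are the widest, and the called genes lie between 0.13 and 0.21.

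The largest estimates were not the called ones. RPS28, the member with the fewest reads after RPS4Y1, had 8.68, 8.51, 6.66 and 7.56 CPM in DMSO and 11.7, 9.12, 9.74 and 8.40 CPM at 0.5 h. The groups overlapped, and the change of 0.31 ± 0.12 had adjusted p = 0.495, or 0.188 with the block. Among the snoRNA hosts, RPL7A had a change of 0.31 ± 0.68 and RPL13 of 0.29 ± 0.57, and neither passed. At the low end stood RPL18, RPL27A at 0.01 ± 0.13 and RPL35A at 0.03 ± 0.06. Over the 56 members without a snoRNA gene the SD of the log2 fold changes at 0.5 h was 0.062, against a median SE per gene of 0.080 without the block and 0.050 with it, so most of the differences among members were no larger than the error of a single gene.

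When the snoRNA reads were subtracted from their hosts, 14 members were called at 0.5 h with the block, against 2.52% of all genes. The 4 added were RPS12, RPSA, RPL13 and RPS3, all snoRNA hosts. RPS12, which as deposited had -0.06 ± 0.16 with the block, became 0.26 ± 0.05 (adjusted p = 0.00436, edgeR). RPSA, which also encodes the laminin receptor, became 0.21 ± 0.04 (adjusted p = 0.016). RPL13 was 0.16 ± 0.04 (adjusted p = 0.0785) and RPS3, a ribosomal protein at the messenger entry with a role in DNA repair, was 0.10 ± 0.03 (adjusted p = 0.0886). This subtraction was chosen after the data were seen.

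At 1 h the members were nearer to DMSO. Their median was 0.08 against 0.01 for all genes, with 73 of 84 above 0 against 52.6% of all genes, and no member was called without the block (1.25% of all genes; 4 members had an unadjusted p under 0.05, and DESeq2 called none). In same-numbered pairs 75, 52, 54 and 54 of 84 were higher in replicates 1 to 4, against 49.7% to 51.7% of all genes. Every 1 h library lay above every DMSO library in 4 of 84 members, against 2.46% of all genes. RPL22L1, at 157, 155, 163 and 159 CPM, and RPS23, at 101, 103, 95.9 and 99.9 CPM, were among them and were called with the block, against 3.25% of all genes. Their blocked changes were 0.12 ± 0.03 (adjusted p = 0.0794) and 0.14 ± 0.04 (adjusted p = 0.0516). Both calls were lost when any 1 replicate was left out, with adjusted p between 0.124 and 0.336 for RPL22L1 and between 0.14 and 0.336 for RPS23. In the members without a snoRNA gene the median by harvest was 0.12, 0.03, 0.07 and 0.01, less even than at 0.5 h.

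At 2 h no member was called without the block (0.733% of all genes; 4 had an unadjusted p under 0.05 and DESeq2 called none), and RPS23 and RPS24 with it (2.43% of all genes). RPS23 had 105, 103, 96.7 and 97.6 CPM, a change of 0.15 ± 0.04 with the block (adjusted p = 0.0329). RPS24, mutated in some cases of Diamond-Blackfan anaemia, had 267, 296, 296 and 270 CPM in DMSO and 300, 323, 302 and 304 CPM at 2 h. Its groups did not overlap, and the change was 0.12 ± 0.03 (adjusted p = 0.0884). Every 2 h library lay above every DMSO library in 3 of 84 members, against 2.65% of all genes. Leaving out any 1 replicate ended both calls, with adjusted p between 0.111 and 0.316 for RPS23 and between 0.172 and 0.413 for RPS24. Over the 56 members without a snoRNA gene 51 were above 0, with a median of 0.08, against 51.0% of all genes. Of the 28 with one, 9 were above 0, with a median of -0.06.

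At 4 h 67 of 84 members were above 0, against 54.7% of all genes, with a median of 0.07, and again no member was called without the block (0.833% of all genes; 6 had an unadjusted p under 0.05 and DESeq2 called none). In same-numbered pairs 67, 40, 53 and 44 of 84 were higher in replicates 1 to 4, against 49.4% to 52.5% of all genes. Among the 28 snoRNA hosts it was 27, 4, 12 and 9, and among the 56 other members 40, 36, 41 and 35. With the block, RPL19 and RPL35 rose, against 2.49% of all genes. RPL35, a large-subunit protein near the exit of the peptide tunnel, had 31.3, 34.3, 29.5 and 33.1 CPM in DMSO and 44.6, 38.0, 35.1 and 36.2 CPM at 4 h. The groups were apart, with the largest gap in replicate 1, and the change was 0.24 ± 0.07 (adjusted p = 0.0917). Every 4 h library lay above every DMSO library in 4 of 84 members, against 2.51% of all genes. RPL19 had 62.7, 51.9, 49.6 and 47.5 CPM and a change of 0.16 ± 0.05 (adjusted p = 0.0813). Both calls were lost when any 1 replicate was left out of the fit with the block. Without replicate 1, whose pairs had the largest differences (0.37 for RPL19 and 0.50 for RPL35), the changes were 0.11 (adjusted p = 0.379) and 0.17 (adjusted p = 0.288). RPS23 was back near DMSO at 94.8, 92.1, 93.5 and 92.6 CPM.

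At 24 h the members lay around DMSO. The median over all 84 was -0.01 against 0.0026 for all genes, with 38 of 84 above 0 against 50.9% of all genes, and none was called without the block (0.863% of all genes; 3 had an unadjusted p under 0.05 and DESeq2 called none). With the block 1 of 84 was called, against 2.65% of all genes. RPL34 had 53.9, 50.5, 57.8 and 54.4 CPM in DMSO and 60.5, 61.7 and 61.0 CPM in replicates 2, 3 and 4 at 24 h, without overlap, but its change of 0.17 ± 0.05 did not pass (adjusted p = 0.107 with the block, 0.0978 with snoRNA reads also subtracted). Every 24 h library lay above every DMSO library in 3 of 84 members, against 5.22% of all genes. The median of the snoRNA hosts was -0.27 and that of the others 0.03. Replicate 1 has a DMSO library and no 24 h library here, and its snoRNA share in DMSO was 41.7%, so the 24 h group lacks the harvest with the highest shares.

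**Figure D5:**
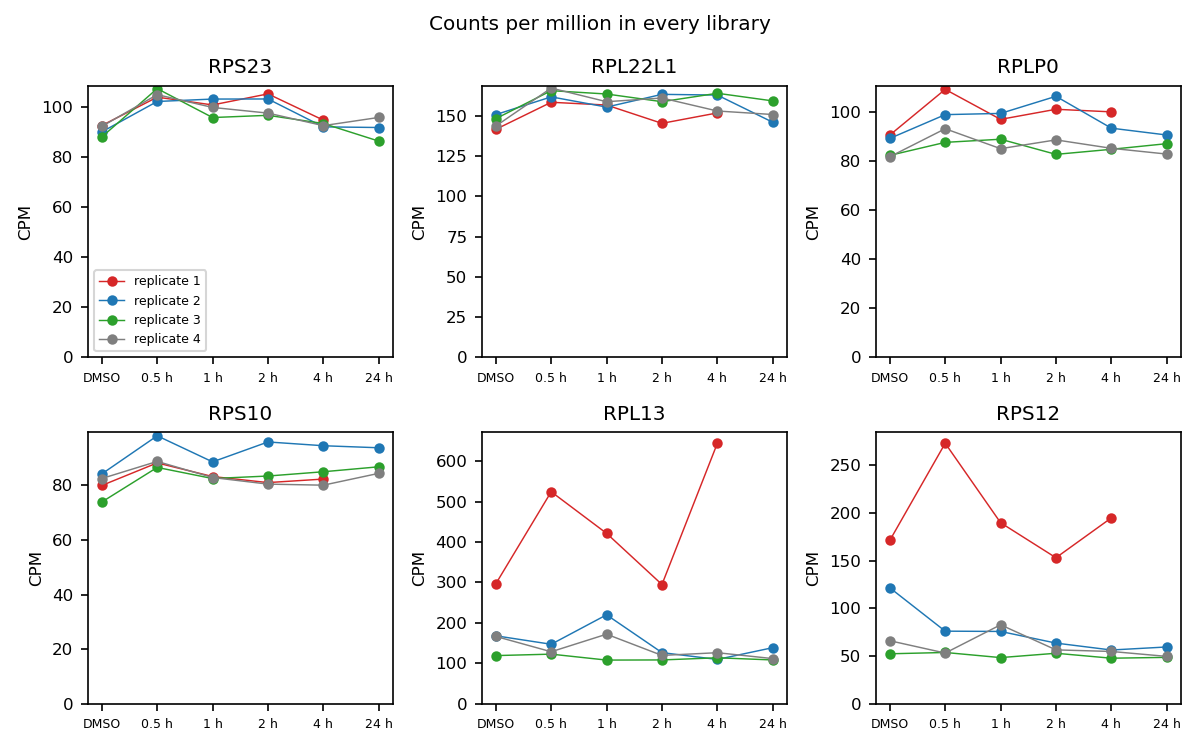
CPM of 6 members in every library, by group, with same-numbered libraries joined. RPS23, RPL22L1, RPLP0 and RPS10 rise from DMSO to 0.5 h in each replicate, and the snoRNA hosts RPL13 and RPS12 are set apart by replicate 1 (red), at 644 and 195 CPM at 4 h.

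Compared with one another, the times differed in RPS23. Between 0.5 h and 4 h RPS23 fell by 0.17 on the log2 scale (SE 0.04, adjusted p = 0.0566), the only member called of 84, against 0.871% of all genes. Between 0.5 h and 24 h it fell by 0.20 (SE 0.04, adjusted p = 0.0212), again the only member called, against 1.99% of all genes. Of 9 alternatives without the block, 3 kept the RPS23 call at 4 h and 4 the one at 24 h. Between 0.5 h and 1 h no member was called (0.023% of all genes; 3 had an unadjusted p under 0.05, and DESeq2 called none). With the block, RPS23, RPL29 and RPS9 were lower at 4 h than at 0.5 h, against 4.15% of all genes. At 24 h against 0.5 h the block gave 6 lower members, RPS23, RPL41, RPL29, RPL39L, RPS27 and RPL22L1, with changes from -0.12 to -0.22, against 6.34% of all genes. With the block and without replicate 3, none of the members named for these 2 times was called. Of all genes 2.88% were called lower in that comparison and 1.42% in the one at 4 h. The medians over all members were -0.04 at 1 h, -0.05 at 4 h and -0.13 at 24 h relative to 0.5 h, with 63, 71 and 77 of 84 members below 0, against 49.8%, 47.9% and 51.6% of all genes. Replicate 1 is in the 0.5 h group and not in the 24 h group. At 0.5 h 52.0% of its host reads lay in snoRNA genes, against 12.1% to 15.8% in the other replicates. For the snoRNA hosts the lower values at 24 h therefore cannot be told apart from the missing replicate.

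Over the course from DMSO to 4 h, a test for any change among the 5 groups called RPS23 (adjusted p = 0.018; 1.33% of 25255 genes tested were called). That call was lost when any 1 replicate was left out. With the block the test called RPS23 (adjusted p = 0.00508) and RPL22L1 (adjusted p = 0.0612), against 4.60% of all genes. With the block kept, RPS23 was lost only when replicate 3 was left out, and RPL22L1 when any 1 replicate was. The 5 comparisons share their DMSO libraries, so counts across them are not independent. With that said, RPLP0 was above its DMSO partner in 19 of 19 same-numbered pairs, and RPS23, RPL22L1, RPL34 and RPL37 in 18, which is 5 of 84 members against 1.84% of all genes. RPL37 was chosen after its values were seen and holds SNORD72.

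Among members without a snoRNA gene and leaving out the paralogs, the 22 small-subunit genes had median log2 fold changes of 0.13, 0.08, 0.08, 0.04 and 0.02 at 0.5, 1, 2, 4 and 24 h. The 27 large-subunit genes had 0.13, 0.07, 0.07, 0.07 and 0.03. At 0.5 h with the block 5 of the 22 and 4 of the 27 were called, all higher, against 1.12% of all genes called higher. The 7 paralogs (RPL7L1, RPL22L1, RPL26L1, RPL36AL, RPL39L, RPS27L and RPS4Y1) had a median of 0.11 at 0.5 h, all 7 above 0, with RPL22L1 called.

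RPL5 and RPL11, which with 5S RNA can bind MDM2 and so stabilise p53, were not called at any time. RPL11 had 34.4, 36.2, 36.3 and 32.0 CPM in DMSO and 44.8, 36.1, 37.6 and 39.1 CPM at 0.5 h, overlapping. RPL5, which holds 2 snoRNA genes, had 79.3, 76.8, 63.1 and 71.6 CPM and then 115, 71.8, 66.9 and 70.6 CPM. RPS27L, known as a p53 target, stayed between 21.4 and 29.7 CPM in all 23 libraries, with a change of 0.03 ± 0.08 at 0.5 h. RPS6, the small-subunit protein phosphorylated downstream of mTOR, had 65.3, 63.5, 59.6 and 59.8 CPM in DMSO and 70.2, 67.4, 65.4 and 64.5 CPM at 0.5 h. It was higher in 4 of 4 pairs but did not pass, at 0.11 ± 0.05 with the block (adjusted p = 0.384). RPS4X, the X-linked gene for a small-subunit protein, had 70.0, 66.8, 60.3 and 62.8 CPM and then 75.3, 69.8, 70.3 and 63.1 CPM, a change of 0.10 ± 0.05 (adjusted p = 0.475). For RPS4X the reads on its named pseudogenes came to 40.4% of its own, and whether any of them arose from RPS4X was not tested.

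Leaving out replicate 1 moved the 2 classes apart. The members without a snoRNA gene kept medians of 0.11, 0.05, 0.06, 0.05 and 0.04 at 0.5, 1, 2, 4 and 24 h, while the 28 hosts had -0.07, 0.07, -0.12, -0.15 and -0.17. With the block and without replicate 1, hosts were called lower, among them RPL17, RPL7A and RPS2 at 2 h (1.76% of all genes were called lower), RPL3, RPL7A, RPS12 and RPS2 at 4 h (1.61%), and RPL27A, RPL7A, RPS12, RPS13 and RPS2 at 24 h (2.40%). With all replicates and snoRNA reads subtracted, the hosts' medians without the block were 0.11, 0.06, 0.06, 0.04 and 0.00075, beside 0.13, 0.07, 0.07, 0.06 and 0.03 for the rest. No host was called lower than DMSO in that form with the block. The part of the snoRNA reads in the lower values was not tested beyond this subtraction. In RPS2 and RPS13 the median snoRNA share was only 2.58% and 4.52%.

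The 48 with a tract had a median of 0.14 at 0.5 h and the 20 without had 0.13, and with the block 8 of 48 and 2 of 20 were called higher, against 1.12% of all genes. The tract status of the other 16 members, RPL5 among them, was not looked up. Pyrimidine runs beside the annotated start, as directly before that of RPL19, were not counted, so the classes depend on the annotated start. The 1145 other protein-coding genes under 5 kb had a median of 0.02 at 0.5 h and the 1436 of 5 to 10 kb had 0.01, beside a median length of 5.55 kb for the members. The 1564 other protein-coding genes with the highest DMSO CPM per kb had a median of 0.02, with 59.97% above 0.

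Other genes of the translation machinery were examined beside the members, with no test of the difference between lists. Of 23 further genes with a 5′ TOP message, such as elongation and initiation factors, 22 lay above 0 at 0.5 h with a median of 0.07. NPM1, a nucleolar chaperone of ribosome assembly, was the only one called without the block, at 0.18 ± 0.04 (adjusted p = 0.0522), against 0.476% of all genes. With the block 4 of the 23 rose, against 1.12% of all genes called higher: NPM1 (0.18, adjusted p = 0.00237), EIF3K (0.21, adjusted p = 0.0239), EEF1A1 (0.15, adjusted p = 0.0319) and EIF2S3 (0.15, adjusted p = 0.0553), and NPM1 was also called at 1 h. The 77 mitochondrial ribosomal protein genes had a median of 0.04 at 0.5 h with 51 above 0, and 0 were called without the block (5 had an unadjusted p under 0.05). With the block 1 of the 77 was called higher, a share near the 1.12% of all genes. The 25 ribosome biogenesis genes had a median of 0.08 with 19 above 0, and 0 were called with or without the block at 0.5 h (1 and 5 had an unadjusted p under 0.05). Some of them varied widely between libraries, as NOP56 from 56.3 to 379 CPM, and others did not, as POLR1A from 83.1 to 97.5 CPM. Reads in snoRNA genes were subtracted from members only, so these lists are given as deposited. FAU, which encodes a ribosomal protein fused to a ubiquitin-like protein and falls outside the naming rule, had a change of 0.06 ± 0.15 at 0.5 h.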

How the data were processed

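PRO-seq libraries of T47D_dTAG_TRPS1_Clone_28 were analysed from the deposited table of raw counts per gene. Per the study's methods, the authors trimmed and deduplicated reads by molecular identifier, removed ribosomal DNA reads, aligned the rest to hg38 and counted reads in genes; the submitters' processing notes name cutadapt 1.8.1, Bowtie2 2.4.4 and SAMtools 1.9. The gene annotation is not given in the sources used here. Rows were matched to GENCODE release 44 by identifier (60463 of 60605). Counting used strand: a gene nested in another exceeded its host in 0.61% of 2624 same-strand pairs and in 15.5% of 2197 opposite-strand pairs. Nevertheless 17 members share their strand with another gene besides snoRNA genes, and pseudogene reads exceeded 10% of the member's own in 19.

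edgeR 4.0.16 (quasi-likelihood test, TMM, filterByExpr at a minimum count of 10 and a minimum total of 15, Benjamini-Hochberg adjustment over all genes, threshold 0.1) was fitted to all 23 libraries with the group as the only term. The treatment protocol in the labels says that each replicate was collected together, at its own time of 1 day, and the replicate number in the titles was taken to mark this; deviations from group means correlated at 0.31 on average within a number and at -0.089 between numbers, so the fit with the number as a block is given where it changes a call. CPM are the deposited counts scaled to a common TMM-adjusted library total. DESeq2 1.42.0, other scalings, no filter, left-out replicates and subtraction of snoRNA reads were tried. The 24 h replicate 1 is not analysed here. Replicates are harvests of 1 clone. Without the block, p-values measure the spread between harvests, and with it the spread left after harvest differences are removed. Reads are the unit of depth, and a member's mean was 742 counts at the median. Replicate pairs differed beyond sampling noise (chi-square per degree of freedom 1.65 to 44.9). Scripts were tested on simulated data.

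The members and gene lists were chosen with earlier results of these data known. By rule, members named in the text were those called without the block, the 3 smallest p with the block at each time or over the course, the 3 highest and lowest levels per kb of the deposited counts, the 3 highest and lowest changes at 0.5 h and 24 h, and 12 genes fixed by role. Other members named fall outside these rules, and only some are marked so where they appear. RPL23A, RPL30, RPS25, RPL29, RPL17, RPL3 and RPL26L1 are among those not marked. The values of some members are not reported here.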

Additional observations from a re-analysis of the deposited data

Results flagged for a closer look

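Of 165 groups of 4 libraries examined for a single library far from the rest, 24 had one by Dixon's ratio, the gap to the nearest library over the whole range. Chance flags about 1 in 20 groups, and most of these groups share libraries. In all but 1 the library was replicate 1, and at 0.5, 2 and 4 h only. For RPL13 the ratios were 0.939, 0.903 and 0.969, for RPL7A 0.940, 0.882 and 0.945, for RPS12 0.896, 0.894 and 0.942, and for RPL5 0.898, 0.866 and 0.917. RPLP2 had 0.831 at 0.5 h and 0.908 at 4 h, and RPSA 0.873 at 4 h. These genes hold snoRNA genes. RPL11 (0.859) and RPL22 (0.944), which do not, were high in replicate 1 at 4 h only, at 47.8 and 55.0 CPM. The share of host reads within snoRNA genes had ratios of 0.907, 0.834 and 0.875 at 0.5, 2 and 4 h, and the summed CPM of those reads 0.947, 0.905 and 0.954, with 3563, 1859 and 3888 CPM in replicate 1 against at most 508 CPM elsewhere in those groups. RPS10 at 1 h was the exception, with replicate 2 at 88.6 CPM and a ratio of 0.880.

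RPS23 was the member whose level differed between times: -0.17 at 4 h and -0.20 at 24 h relative to 0.5 h, tested directly with edgeR (adjusted p = 0.0566 and 0.0212). These calls depended on the processing: without the block they held in 3 of 9 and 4 of 9 alternatives. With the block they held in 3 of 6 and 5 of 6.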

How the results depend on the processing

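The replicate block moved the number of members called from 1 to 10 at 0.5 h, from 0 to 2 at 1, 2 and 4 h and to 1 at 24 h, from 1 to 3 between 0.5 and 4 h, from 1 to 6 between 0.5 and 24 h and from 1 to 2 over the course. Scaling by total counts only and no filter on low counts each gave 0 at 0.5 h, in both later comparisons with 0.5 h and over the course, and using DMSO and that time point only gave 0 at 0.5 h. DESeq2 gave 3 at 0.5 h, 2 between 0.5 and 24 h and 2 over the course, against 1.62%, 4.66% and 3.46% of all genes. The following were chosen after the data were seen. The block with snoRNA reads subtracted gave 14, 2, 3, 2 and 2 at the 5 times, against 2.52%, 3.29%, 2.48%, 2.51% and 2.69% of all genes. For the later comparisons and the course it gave 5, 7 and 4, against 4.23%, 6.48% and 4.89%. DESeq2 with the block gave 16, 3, 3, 1 and 1, then 3, 12 and 9, with no share of all genes at hand to set beside them. The block with only DMSO and that time point gave 2 at 1 h, 6 at 2 h and 12 at 24 h, against 1.89%, 2.87% and 4.82% of all genes. All those called at 2 and 24 h hold snoRNA genes. Those at 24 h were lower than DMSO in every same-numbered pair, and those at 2 h in most pairs. Leaving out 1 replicate, with or without the block, gave 0 to 6 at 0.5 h, 0 to 2 at 1 h, 0 to 4 at 2 h, 0 to 5 at 4 h, 0 to 6 at 24 h, 0 to 3 between 0.5 and 1 h, 0 to 3 between 0.5 and 4 h, 0 to 8 between 0.5 and 24 h and 0 to 11 over the course. Except at 1 h, the block without replicate 1 gave the highest of these counts. It called 2.72%, 3.0%, 3.09% and 4.16% of all genes at 0.5, 2, 4 and 24 h. For the comparisons with 0.5 h and the course it called 1.95%, 3.25%, 7.16% and 6.0%. The calls without replicate 1 at 2, 4 and 24 h were lower ones. The median over members at 24 h, -0.012, became 0.027 with the block, 0.022 with total counts, 0.022 with snoRNA reads subtracted, 0.046 with both block and subtraction, 0.018 by DESeq2 with the block and 0.031 over members without a snoRNA gene, and ran from -0.031 to 0.034 with 1 replicate left out, at 0.011 with the block and without replicate 1. The median at 0.5 h kept its direction with 1 replicate left out, from 0.096 to 0.16. Apart from these, the cause of each change was not tested. Depth limits RPS28 and other low members most.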
